A study of Homo sapiens with 10 samples.

Results

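Glycolysis and the cellular response to low oxygen were followed through 37 genes, taken by gene symbol from the deposited count table of a study of the nuclear envelope protein NEMP1. The genes encode glucose and lactate transporters, the enzymes of glycolysis, regulators of the flow into and out of the pathway, components of oxygen sensing and targets of hypoxia-inducible factor. Of the 37 genes, 36 had a row among the 40664 of the table, and LDHA was not analysed here. The filter on low counts kept 35 of them among 13990 genes, and EGLN3 fell below it. The cells were hTERT RPE-1, an established human line from retinal pigment epithelium that telomerase made immortal. Total RNA was sequenced from 3 siNemp1 and 3 control libraries on a 120 kPa substrate, and from 2 siNemp1 and 2 control libraries on a 10 kPa substrate. siNemp1 is a small interfering RNA against NEMP1, and kPa is the stiffness of the substrate. The sources used here do not say what the control cells received or how long the treatment lasted. All samples are of 1 cell line, and nothing in the labels says that replicates came from separate cultures, so the p-values cover the spread from library to library, and that spread may be technical only.

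Glycolysis splits glucose into pyruvate, and its later steps yield ATP and NADH. Cells that are short of oxygen turn pyruvate into lactate and export it, which regenerates the NAD that the pathway needs. Hypoxia-inducible factor is a transcription factor whose alpha subunit, encoded by HIF1A, is marked for destruction by the prolyl hydroxylases EGLN1 and EGLN3 while oxygen is present. When oxygen falls, the factor binds short DNA elements beside many glycolytic genes and beside genes for mitochondrial removal, vessel growth and collagen modification. Because the alpha subunit is controlled mainly as a protein, the level of its transcript is not a readout of the activity of the factor. The retinal pigment epithelium supports the photoreceptors of the eye, which rely on glycolysis themselves.

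The bases before the start of a gene are where such elements are often found, and 4 members that the results turn on are shown for that reason. The sequences are the RefSeq windows of GRCh38.p14 on the strand of the gene, 5′ to 3′. Where a GENCODE 29 transcript of the same gene starts within the window, the bases from that start on were left off. Transcripts that start farther upstream, and those of other genes, were not considered. The PGK1 and ENO1 stretches lie inside the annotated spans of those genes. Capitals mark ACGTG or GCGTG, the core letters of a hypoxia response element, on either strand (CACGT or CACGC on the other strand), and overlapping matches were joined.
PGK1 (chrX:78103998-78104173, plus strand, 176 bases): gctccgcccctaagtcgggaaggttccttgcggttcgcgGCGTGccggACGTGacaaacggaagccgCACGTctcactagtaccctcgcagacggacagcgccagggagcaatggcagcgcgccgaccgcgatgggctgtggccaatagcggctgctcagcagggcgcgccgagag
BNIP3 (chr10:131982014-131982173, minus strand, 160 bases): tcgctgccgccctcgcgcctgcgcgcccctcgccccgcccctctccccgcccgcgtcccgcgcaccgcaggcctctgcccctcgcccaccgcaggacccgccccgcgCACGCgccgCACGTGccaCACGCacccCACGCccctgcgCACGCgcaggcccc
ENO1 (chr1:8878690-8878936, minus strand, 247 bases): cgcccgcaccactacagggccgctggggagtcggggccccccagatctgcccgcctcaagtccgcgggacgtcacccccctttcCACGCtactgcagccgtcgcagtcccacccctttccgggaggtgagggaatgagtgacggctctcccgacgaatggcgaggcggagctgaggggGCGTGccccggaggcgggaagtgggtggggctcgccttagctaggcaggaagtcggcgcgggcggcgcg
HK2 (chr2:74833877-74833980, plus strand, 104 bases): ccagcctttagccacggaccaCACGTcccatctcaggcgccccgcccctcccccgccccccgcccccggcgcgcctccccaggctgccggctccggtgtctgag
PGK1 held 3 matches close together, BNIP3 held 5 separate matches in a single cluster, ENO1 held 2 that lay farther apart, and the HK2 stretch held 1. Over the whole 250-base window before the start, 22 of 32 members with an entry held at least 1 match, or 68.8%. The same letters were found in 43.2% of all 35114 windows of that length. The members' windows were also richer in G and C, at 68.5% on average against 57.2%, and a match is a run of letters and not a shown binding site. No match was found in the windows of 10 members, which were PGAM1, TPI1, PKM, LDHB, SLC2A1, SLC16A3, PFKM, PFKP, P4HA2 and EGLN3. The window of PGAM1 lies 1658 bases from the main annotated start. Sequences are shown here only for members that hold a match, and BNIP3L, VEGFA, NDRG1, SLC2A3 and SLC16A1 are named only.

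The libraries held between 17.95 and 23.798 times 1000000 estimated counts each. NEMP1 was measured at 7.52, 6.70 and 4.11 counts per 1000000 (CPM) in siNemp1 cells at 120 kPa against 18.3, 14.0 and 14.1 CPM in control cells, and at 8.22 and 7.63 CPM in siNemp1 cells at 10 kPa against 14.1 and 17.3 CPM in control cells. The 5 siNemp1 libraries lay below the 5 control libraries. Of 11 markers of retinal pigment epithelium, 6 passed the filter, led by MITF (123 CPM on average), BEST1 (72.1 CPM) and OTX2 (26.3 CPM), while RPE65 had 5 counts in all. The epithelial keratins KRT8 and KRT18 passed and EPCAM and CDH1 did not. Of 4 endothelial markers, PECAM1 and KDR passed and CDH5 was at 0, and the 4 summed to between 1.32 and 2.55 CPM. Of 4 leukocyte markers, CD3E, PTPRC and CD14 averaged 0.0532, 1.12 and 1.30 CPM. The other, CD68, a lysosomal protein, averaged 898 CPM. The summed level of the leukocyte markers, mostly CD68, ran from 494 to 857 CPM in siNemp1 against 713 to 1168 CPM in control cells at 120 kPa, and from 935 to 1020 CPM against 1081 to 1082 CPM at 10 kPa. The summed level of 6 fibroblast markers, mostly THY1, ran from 278 to 671 CPM in siNemp1 against 634 to 855 CPM in control cells at 120 kPa, and from 680 to 699 CPM against 874 to 876 CPM at 10 kPa. Transcripts encoded by mitochondrial DNA took 1.06%, 0.826% and 0.709% of counts in siNemp1 against 1.73%, 1.40% and 0.913% in control cells at 120 kPa. At 10 kPa they took 1.48% and 1.55% in siNemp1 against 1.60% and 1.54% in control cells. The part of these shifts in the results that follow was not tested. In bulk RNA of 1 cell line, fewer cells with a transcript and less of it per cell cannot be told apart.

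The cells carried a high glycolytic transcript load in every group. The 16 glycolytic enzymes with a row took 8.08% ± 1.21 of all counts in siNemp1 and 7.93% ± 0.956 in control cells at 120 kPa (SD, n = 3 each), and 8.80% ± 0.395 in siNemp1 and 8.29% ± 0.0240 in control cells at 10 kPa (SD, n = 2 each). At 120 kPa the share fell from replicate 1 to replicate 3 in both groups. It was 9.18%, 8.27% and 6.79% in siNemp1 and 8.97%, 7.76% and 7.08% in control cells. The replicates of a group lay further apart than the group means. Per kilobase of annotated transcript, GAPDH, which oxidises glyceraldehyde phosphate, stood first with a mean level of 22758 CPM per kb over the 10 libraries. The aldolase ALDOA followed with 9890 CPM per kb, then the pyruvate kinase PKM with 6939, the triosephosphate isomerase TPI1 with 6721 and the enolase ENO1 with 3910. GAPDH lay above ALDOA, ALDOA above PKM and TPI1 above ENO1 within every library, while PKM and TPI1 changed places between libraries. The lactate dehydrogenase LDHB had 904 CPM per kb and PGAM1, the mutase that moves the phosphate group of phosphoglycerate, 472. PGK1, the kinase that makes the first ATP of the pathway's lower part, had 294 CPM per kb. HIF1A lay in the middle, at 78.1 CPM per kb. The lowest members were ANKRD37 (5.47 CPM per kb), ALDOC (3.45) and EGLN1 (2.54). EGLN3, an oxygen sensor that hypoxia-inducible factor itself induces, had 14 counts in all, at 0, 0.244 and 0.303 CPM in siNemp1 and 0, 0.1102 and 0 CPM in control cells at 120 kPa and at 0 in the 4 libraries at 10 kPa.

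**Figure D1:**
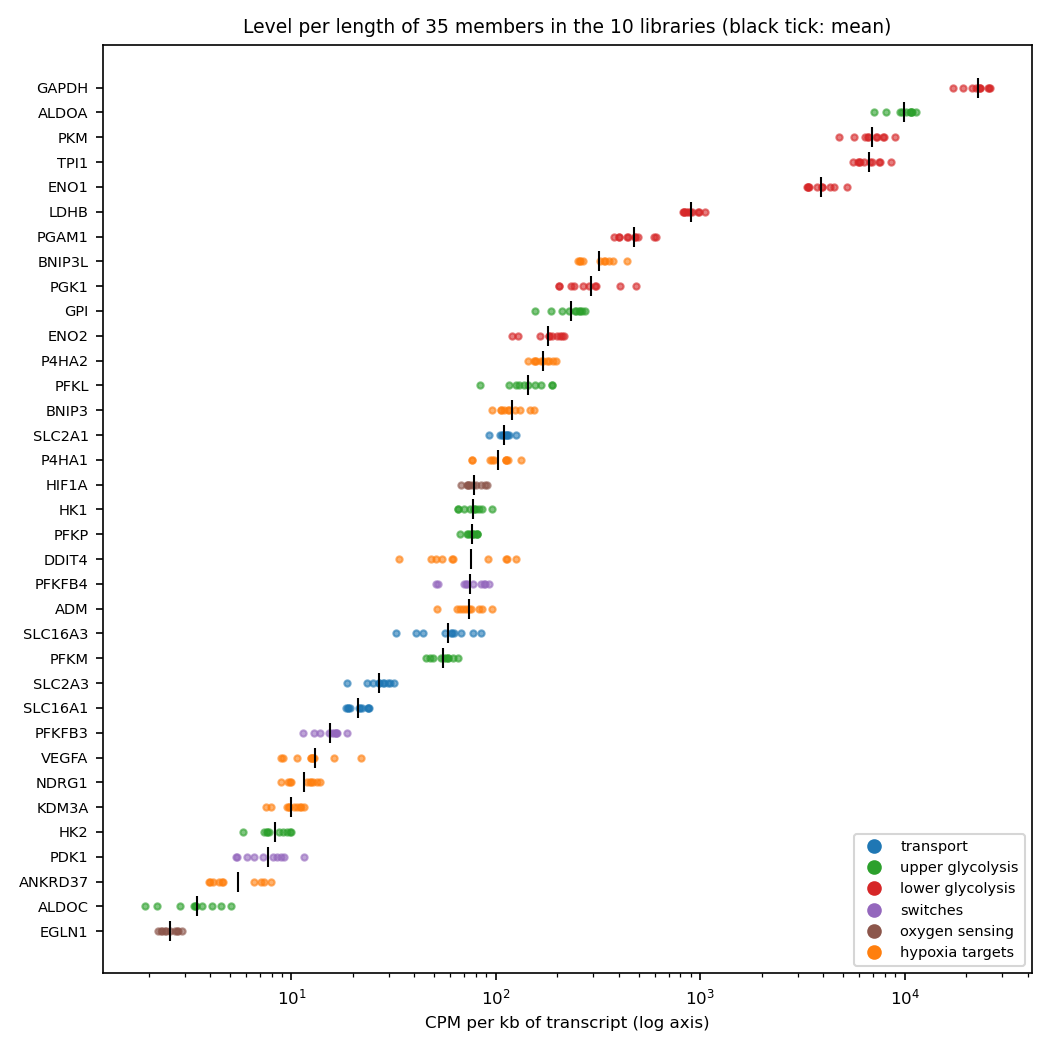
Level of 35 members per kilobase of annotated transcript, on a log axis, with 1 point per library (10 libraries), a black tick at the mean and colours for the members' roles. The 5 highest members, GAPDH to ENO1, are glycolytic enzymes with means from 22758 to 3910 CPM per kb, and EGLN1 is lowest with 2.54.

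In the hexokinase and aldolase families 1 form supplied most of the transcript per length. HK1 made up 91.1% ± 1.71 of the hexokinase level in siNemp1 and 89.9% ± 2.26 in control cells at 120 kPa, and HK2, the inducible form, the rest. ALDOA made up over 99.9% of the aldolase level of the ALDOA and ALDOC pair in each group mean, with 99.959% as the lowest. Phosphofructokinase, the committed step, was spread over the liver form PFKL (51.6% on average over the 10 libraries), the platelet form PFKP (27.9%) and the muscle form PFKM (20.5%). These shares rest on median transcript lengths of 1.52 kb for PFKL, 2.65 kb for PFKP and 2.87 kb for PFKM. Without division by length they averaged 218, 202 and 159 CPM, so that the lead of PFKL was much smaller. The enolase pair did not overlap between treatments. ENO2, the form named for neurons, made up 3.51%, 3.50% and 3.12% of the pair in siNemp1 against 5.19%, 5.12% and 3.64% in control cells at 120 kPa, and 4.42% and 4.42% in siNemp1 against 5.88% and 5.83% in control cells at 10 kPa. The siNemp1 libraries lay below the control libraries at both stiffnesses, which was seen after the values were known and was given no test.

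At 120 kPa the phosphoglycerate kinase PGK1 stood furthest from its controls, and the mutase PGAM1 and the mitophagy receptors BNIP3 and BNIP3L were also higher in every siNemp1 library than in every control library. None of these passed edgeR's quasi-likelihood test over all 10 libraries at a Benjamini-Hochberg adjusted p under 0.05, where 0 of 35 members and 0% of 13990 genes were called. In that fit 2413 genes and 8 members had an unadjusted p under 0.05. Same-numbered libraries deviated together from their group means at 120 kPa, with correlations across genes of 0.426, 0.157 and 0.359. They hardly did so at 10 kPa (0.0171) or between stiffnesses (−0.0461 on average). With the replicate number as a block, which gives each number 1 shift for both stiffnesses, 4 of 35 members were called, all higher in siNemp1. The background in that fit was 8.75% of genes, 6.24% higher and 2.51% lower, and 4 of 35 is too near that share to be read as particular to these genes. By rank alone, 7 members (SLC2A1, SLC16A1, PGK1, PGAM1, BNIP3, BNIP3L and ANKRD37) were higher in siNemp1 with no overlap between the groups, against 10.9% of all genes, and 0 were lower, against 6.95%. The members were chosen with earlier results of these data known, so their shares here and below are not independent support. Upper-quartile scaling in the blocked fit called the same 4 genes and also HK2, lower, among 1215 genes called in all. DESeq2 called 2 of the 4, PGK1 and PGAM1, a count given without the share of all genes in that fit. The blocked calls rested on replicate 2, and without that pair 0 members and 2 genes were called. Without replicate 1 there were 5 members among 1552 genes, and without replicate 3 there were 2 among 755. The median log2 change of the members was 0.08, and that of all genes was 0.01, in the fit without the block.

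At 10 kPa the same 4 genes were again higher in both siNemp1 libraries than in both control libraries, as were PDK1, ENO1 and TPI1. These genes were among 15 members that were higher, and HIF1A and HK2 were among 10 that were lower. The fit of all libraries called 0 of 35 members and 0% of genes, with 850 genes and 3 members at an unadjusted p under 0.05, and the blocked fit called 0 members and 0.0286% of genes. These fits share 1 spread over both stiffnesses, and the replicates at 10 kPa lay much closer together (common dispersion 0.00423) than those at 120 kPa (0.0525). The fit of the 4 libraries at 10 kPa alone called 14 members, 12 higher and 2 lower, against a background of 17.3% of 13345 genes, 8.1% higher and 9.19% lower. The members called changed with each of these libraries left out. Such a fit leaves 1 library in a group, so the number of its calls is not given. By rank alone, 15 members (42.9%) were higher in siNemp1 with no overlap, against 28.8% of all genes. The 10 lower members (28.6%) were at the share of all genes, 28.5%. With a variance for each stiffness, limma's voomLmFit called 3 members (PGK1, BNIP3L and PDK1), and with the replicate block added it called 0. These counts are given without the share of all genes in the same fits.

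Averaged over both stiffnesses, PGK1 was the 1 member called in the fit without the block, which called 1.29% of genes, 0.858% higher and 0.429% lower. The blocked fit called 7 members, with PGK1, BNIP3L, BNIP3, PDK1, PGAM1 and ENO1 higher and HK2 lower, against 10.8% of genes, 6.58% higher and 4.17% lower. The call on PGK1 without the block was lost under 9 of 22 alternatives, among them DESeq2's size factors (adjusted p = 0.0546) and upper-quartile scaling (adjusted p = 0.0515). It was also lost without any 1 of the 4 libraries at 10 kPa (adjusted p = 0.241 to 0.332), without control replicate 2 (0.151), siNemp1 replicate 1 (0.0733) or siNemp1 replicate 2 (0.0927) at 120 kPa, while over the 22 alternatives its log2 change lay between 0.53 and 0.68 and its adjusted p between 0.000208 and 0.332. Between groups that do not overlap at either stiffness, 5 of 35 members were higher in siNemp1 (SLC16A1, PGK1, PGAM1, BNIP3 and BNIP3L), against 8.01% of all genes, and 0 were lower, against 4.83%.

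**Figure D2:**
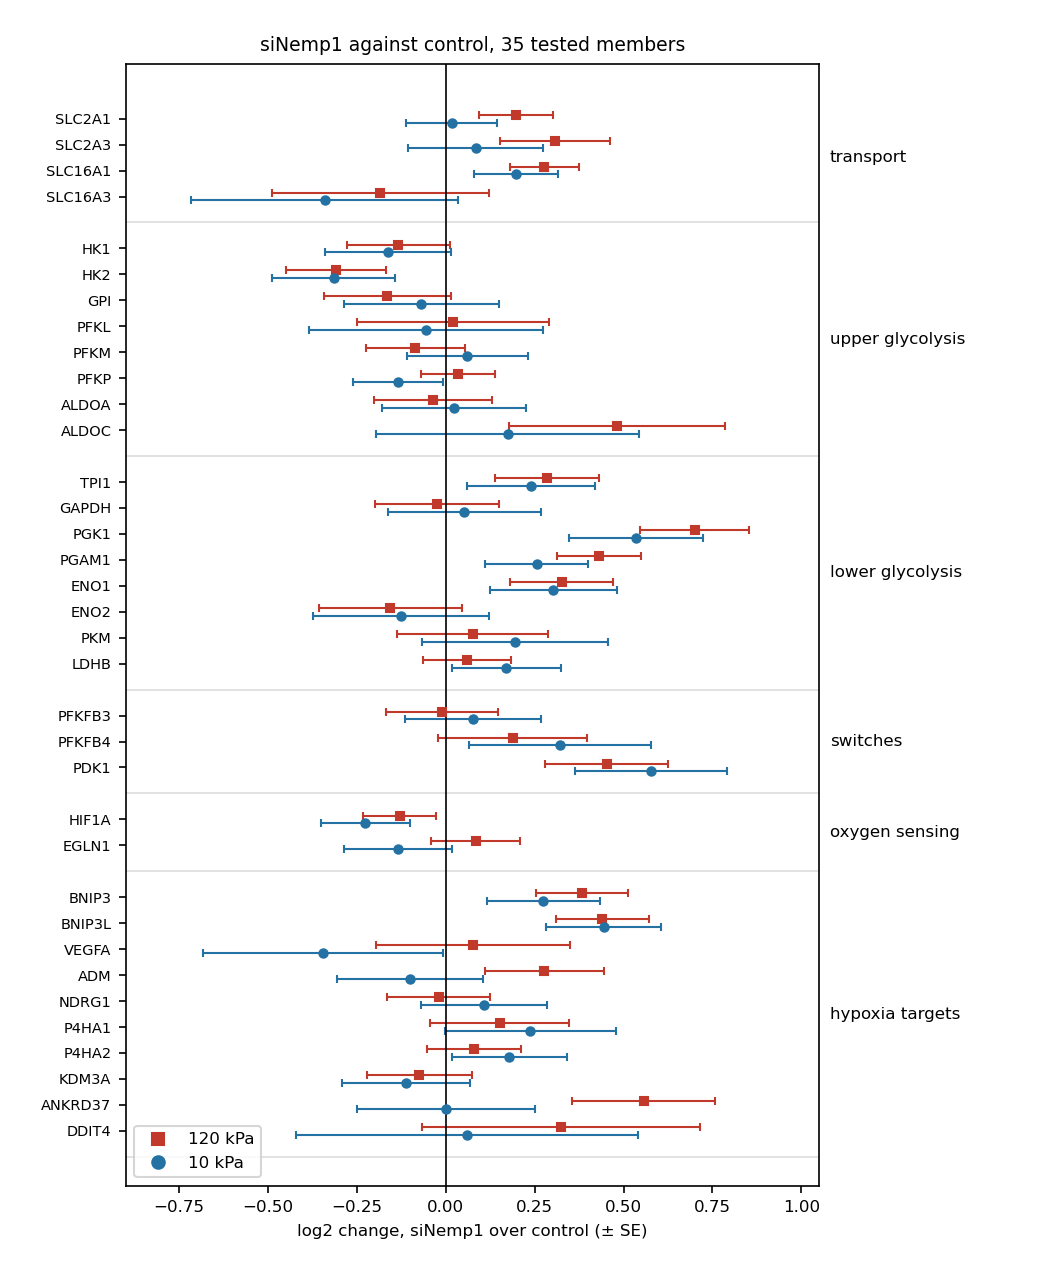
Log2 change of siNemp1 over control (horizontal axis, ± SE of the edgeR fit of all libraries) for the 35 tested members in order of their role, at 120 kPa (squares) and 10 kPa (circles). PGK1 lies furthest right at 120 kPa, with 0.70 ± 0.15, and HK2 and HIF1A lie left of 0 at both stiffnesses.

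Among the transporters, SLC2A1 and SLC2A3 bring glucose into the cell, SLC16A1 carries lactate and other monocarboxylates and SLC16A3 exports lactate. SLC2A1 had 245, 263 and 228 CPM in siNemp1 against 195, 221 and 226 CPM in control cells at 120 kPa, and 238 and 237 CPM against 231 and 238 CPM at 10 kPa. The groups did not overlap at 120 kPa, by a narrow margin, and overlapped at 10 kPa. Its log2 change was 0.20 ± 0.10 at 120 kPa and 0.02 ± 0.13 at 10 kPa, with adjusted p of 0.359 and 0.991 (edgeR). SLC16A1 had 99.7, 97.7 and 98.2 CPM in siNemp1 against 89.1, 78.5 and 76.4 CPM in control cells at 120 kPa, and 92.1 and 89.4 CPM against 78.5 and 79.8 CPM at 10 kPa. Every siNemp1 library lay above every control library of its stiffness. It was called in the fit of the 4 libraries at 10 kPa (log2 change 0.19 ± 0.06, adjusted p = 0.0415), and in the blocked fit at 120 kPa its adjusted p was 0.0776. SLC16A3 ran from 90.3 to 139 CPM in siNemp1 and from 67.0 to 175 CPM in control cells at 120 kPa, so that the spread within a group exceeded the difference between the groups.

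No enzyme of upper glycolysis was called higher in the fits of all libraries, with or without the block, or in the fit of the 4 libraries at 10 kPa. The upper enzymes called in that last fit changed when a library was left out, which leaves 1 library in a group. HK2, the hexokinase that hypoxia and growth signals induce, had 42.9, 42.2 and 32.2 CPM in siNemp1 against 52.6, 50.5 and 42.1 CPM in control cells at 120 kPa. At 10 kPa it had 47.8 and 40.3 CPM in siNemp1 against 54.7 and 55.1 CPM in control cells. At 120 kPa the groups touched, since control replicate 3 lay just under the 2 higher siNemp1 libraries, and at 10 kPa they were apart. The log2 change was −0.31 ± 0.14 at 120 kPa (adjusted p = 0.294), and in the blocked average of both stiffnesses HK2 fell by 0.32 on the log2 scale (SE 0.08, adjusted p = 0.0275). The fit of the 10 kPa libraries called it as well, at −0.33 ± 0.08 (adjusted p = 0.00718). The other 7 enzymes of upper glycolysis (HK1, GPI, PFKL, PFKM, PFKP, ALDOA and ALDOC) were not called in these fits, and HK1 was called lower where the fit of the 10 kPa libraries took the replicate number as a block. With all libraries fitted, their log2 changes at 120 kPa ran from −0.16 for GPI, the glucose phosphate isomerase, to 0.48 for ALDOC. ALDOA, with 16651, 14649 and 11013 CPM in siNemp1 against 15829, 14987 and 12543 CPM in control cells, overlapped between the groups.

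Lower glycolysis held PGK1 and its neighbours. PGK1 (ENSG00000102144, chromosome X, 77910739 to 78129296 in GENCODE 29, plus strand) had 1760, 1481 and 1132 CPM in siNemp1 against 971, 847 and 875 CPM in control cells at 120 kPa. At 10 kPa it had 1040 and 1115 CPM in siNemp1 against 741 and 746 CPM in control cells. The lowest siNemp1 library was above the highest control library at each stiffness, and replicate 3 of siNemp1 lay nearest to the controls at 120 kPa. Its log2 change at 120 kPa was 0.70 ± 0.15 without the block (adjusted p = 0.0687) and 0.68 ± 0.12 with it (adjusted p = 0.0105). At 10 kPa the fit of all libraries gave 0.54 ± 0.19 (adjusted p = 0.803), and the 4 libraries fitted alone gave 0.52 ± 0.06 (adjusted p = 2.72e-06). The average over both stiffnesses was 0.62 ± 0.12 (adjusted p = 0.0483).

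PGAM1 (chromosome 10, 97426160 to 97433441), the next enzyme, had 1118, 1088 and 909 CPM in siNemp1 against 695, 802 and 813 CPM in control cells at 120 kPa, and 875 and 876 CPM against 732 and 736 CPM at 10 kPa. The groups were apart at both stiffnesses. In the blocked fit it was higher by 0.43 ± 0.11 on the log2 scale at 120 kPa (adjusted p = 0.0342, against 0.111 without the block). ENO1 (chromosome 1, 8861000 to 8879250), which makes phosphoenolpyruvate, had 9259, 8059 and 6619 CPM in siNemp1 against 7046, 6009 and 6043 CPM in control cells at 120 kPa, and 7060 and 7649 CPM against 5982 and 5943 CPM at 10 kPa. At 120 kPa siNemp1 replicate 3 lay below control replicate 1. ENO1 was called in the blocked average (0.31 ± 0.09, adjusted p = 0.0447) and in the fit of the 10 kPa libraries (0.29 ± 0.06, adjusted p = 0.0019).

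TPI1 had 12563, 11004 and 9228 CPM in siNemp1 against 10144, 8602 and 8179 CPM in control cells at 120 kPa, and 9878 and 10909 CPM against 8840 and 8775 CPM at 10 kPa. It overlapped at 120 kPa and was called in the fit of the 10 kPa libraries (0.23 ± 0.06, adjusted p = 0.0149). PKM, which makes pyruvate, had 20636, 16676 and 11000 CPM in siNemp1 against 18167, 14736 and 12958 CPM in control cells at 120 kPa, and 16772 and 18093 CPM against 15275 and 15175 CPM at 10 kPa. Its siNemp1 libraries at 120 kPa took both the highest and the lowest places, and at 10 kPa it was called in the fit of those libraries (0.18 ± 0.06, adjusted p = 0.0474). GAPDH had 33383, 28497 and 21936 CPM in siNemp1 against 33197, 27341 and 24759 CPM in control cells at 120 kPa, and 29495 and 32587 CPM against 30034 and 29851 CPM at 10 kPa. The groups overlapped at both stiffnesses, and its log2 change was −0.03 ± 0.18 at 120 kPa (adjusted p = 0.962). LDHB and ENO2 were not called in these fits at either stiffness.

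**Figure D3:**
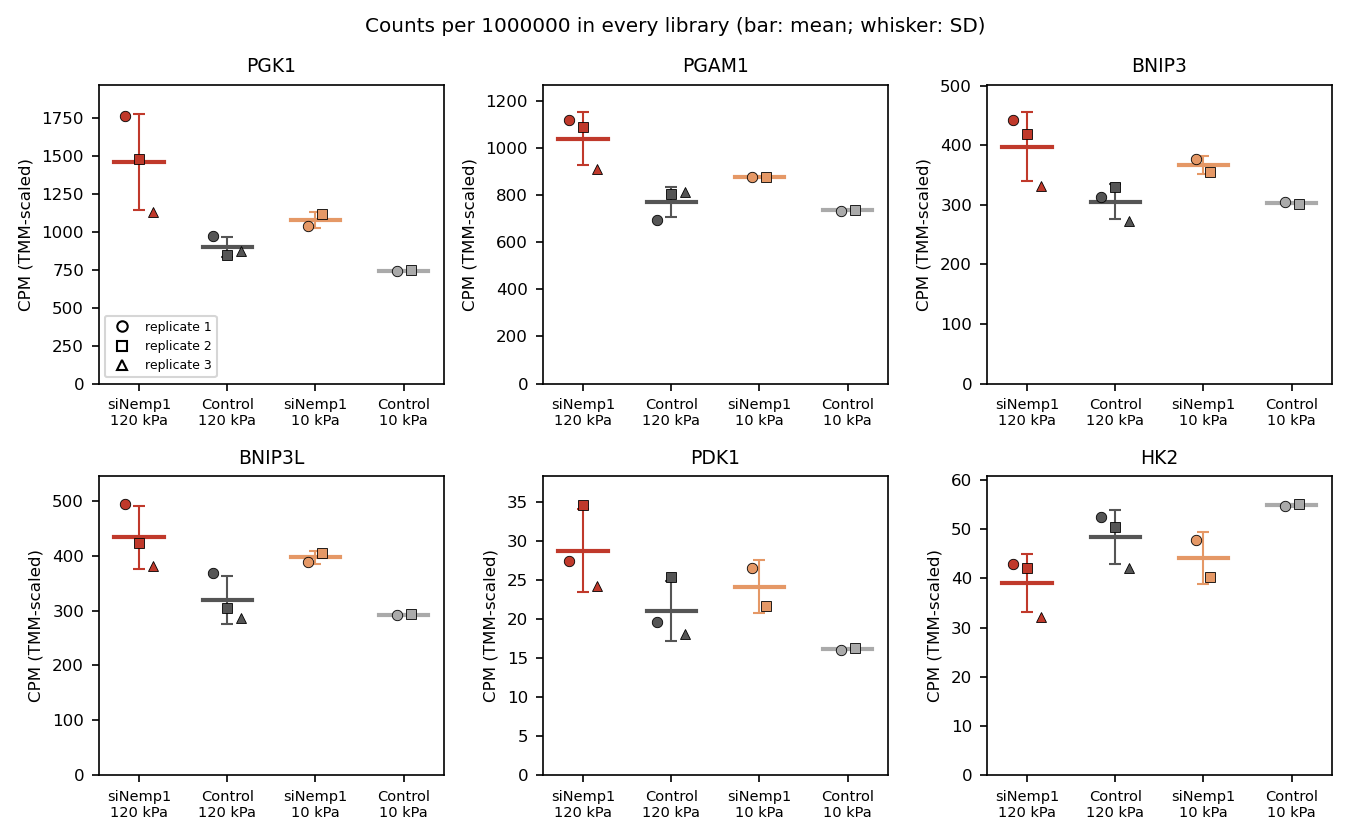
Counts per 1000000 of PGK1, PGAM1, BNIP3, BNIP3L, PDK1 and HK2 in every library of the 4 groups, with marker shapes for the replicate number, a bar at the mean and a whisker of 1 SD. siNemp1 lies above control at both stiffnesses for PGK1, PGAM1, BNIP3 and BNIP3L, with PGK1 at 1132 CPM or more in siNemp1 against 971 CPM or less in control cells at 120 kPa.

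Since GAPDH is the most abundant enzyme and its groups overlapped, the other abundant enzymes were also read as a share of the GAPDH count of the same library, which needs no scaling between libraries. This reading was chosen after the values were seen and has no test. PGK1 counts were 5.27%, 5.20% and 5.16% of GAPDH in siNemp1 against 2.92%, 3.10% and 3.53% in control cells at 120 kPa, and 3.53% and 3.42% against 2.47% and 2.50% at 10 kPa. The 3 siNemp1 values at 120 kPa were close together, although the CPM of PGK1 differed widely among those libraries. TPI1 counts were 37.6%, 38.6% and 42.1% of GAPDH in siNemp1 against 30.6%, 31.5% and 33.0% in control cells at 120 kPa, and 33.5% and 33.5% against 29.4% and 29.4% at 10 kPa. ENO1 counts were 27.7%, 28.3% and 30.2% against 21.2%, 22.0% and 24.4% at 120 kPa, and 23.9% and 23.5% against 19.9% and 19.9% at 10 kPa. For both enzymes the groups were apart at each stiffness, unlike their CPM at 120 kPa. Of 9 enzymes set against GAPDH, PGK1, TPI1, ENO1 and PGAM1 were higher in siNemp1 at both stiffnesses with no overlap and GPI was lower, against 4.55% of the other 13989 tested genes higher and 3.79% lower by the same reading. ALDOA, PKM, LDHB and ENO2 overlapped at 120 kPa. These ratios compare counts of genes of different length and show unequal change within a library. Rows for processed pseudogenes of PGK1 held at most 0.014% of the count of PGK1, and those of GAPDH at most 0.0203% of the count of GAPDH, so that few reads were counted to the annotated copies.

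**Figure D4:**
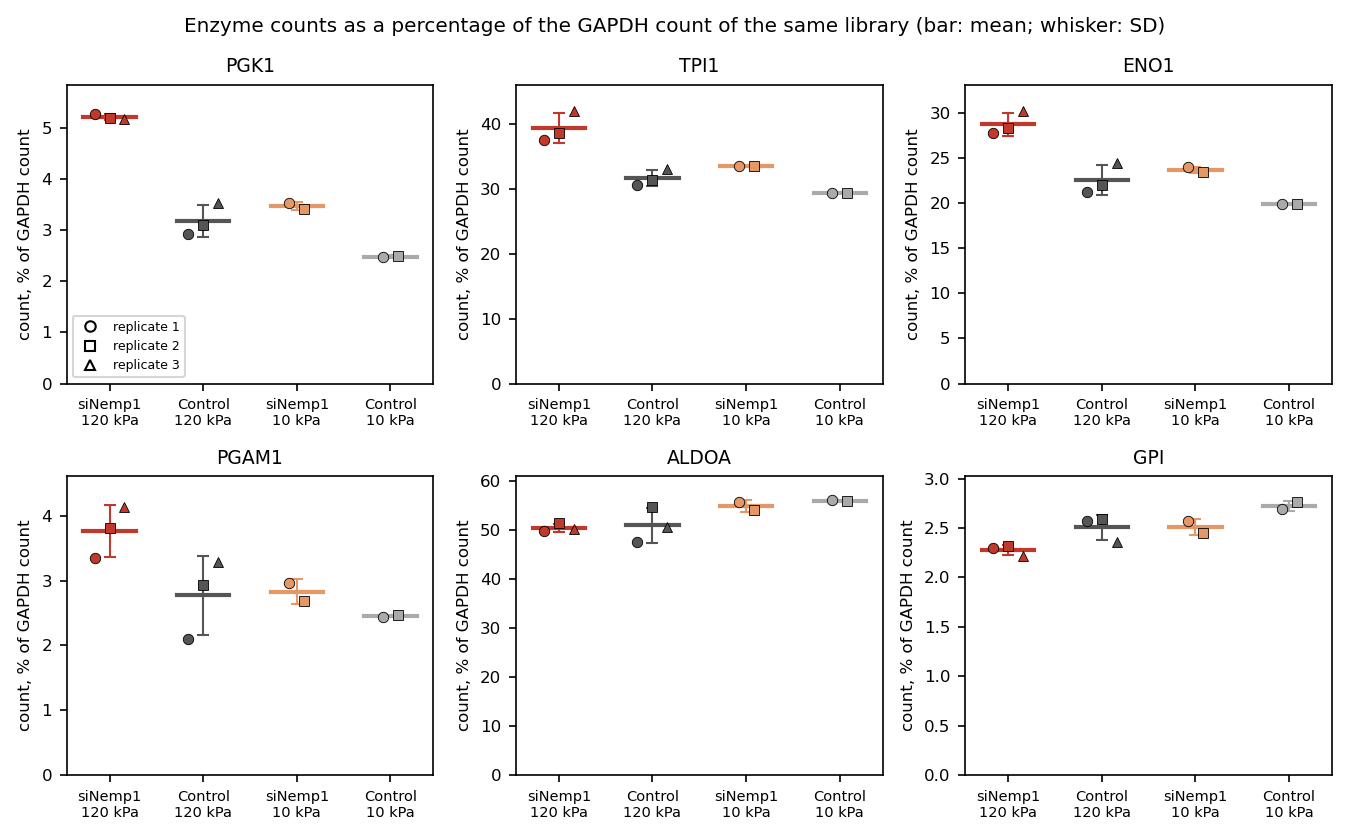
Counts of PGK1, TPI1, ENO1, PGAM1, ALDOA and GPI as a percentage of the GAPDH count of the same library, in the 4 groups, with marker shapes for the replicate number, a bar at the mean and a whisker of 1 SD. PGK1 was 5.16% to 5.27% of GAPDH in siNemp1 at 120 kPa, against 2.92% to 3.53% in control cells, and ALDOA overlapped between these groups.

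Of the 3 regulators of the flow of glucose, PDK1 and PFKFB4 were called in part of the fits. PDK1 (chromosome 2, 172555373 to 172608669), a kinase that keeps pyruvate out of the mitochondrial citrate cycle, had 27.5, 34.6 and 24.2 CPM in siNemp1 against 19.6, 25.3 and 18.1 CPM in control cells at 120 kPa. At 10 kPa it had 26.5 and 21.7 CPM in siNemp1 against 16.1 and 16.3 CPM in control cells. Each siNemp1 library at 120 kPa was above the control library of its number, and across numbers the groups overlapped. Its log2 change was 0.45 ± 0.14 at 120 kPa in the blocked fit (adjusted p = 0.0698) and 0.52 ± 0.11 in the blocked average (adjusted p = 0.0183). PFKFB3 and PFKFB4 set the level of fructose bisphosphate that switches phosphofructokinase on. PFKFB4 had 139 and 138 CPM in siNemp1 against 110 and 112 CPM in control cells at 10 kPa, where the fit of those libraries called it (0.31 ± 0.06, adjusted p = 0.000701). At 120 kPa PFKFB4 overlapped, with 147, 134 and 80.7 CPM in siNemp1 against 114, 121 and 82.3 CPM in control cells. PFKFB3 had log2 changes of −0.01 ± 0.16 at 120 kPa and 0.08 ± 0.19 at 10 kPa.

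Neither tested oxygen-sensing gene was called at 120 kPa. HIF1A had 266, 293 and 282 CPM in siNemp1 against 287, 331 and 303 CPM in control cells at 120 kPa, and 314 and 286 CPM against 354 and 347 CPM at 10 kPa. Each siNemp1 library was below the control library of its number, the groups overlapped at 120 kPa, and they were apart at 10 kPa. The log2 change was −0.13 ± 0.10 at 120 kPa (adjusted p = 0.558) and −0.24 ± 0.06 in the fit of the 10 kPa libraries (adjusted p = 0.0051). EGLN1 ranged from 15.8 to 19.1 CPM in siNemp1 and from 16.3 to 17.1 CPM in control cells at 120 kPa and was not called.

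Among the 10 targets of hypoxia-inducible factor, the 2 mitophagy receptors were called at 120 kPa with the block and the other 8 were not. BNIP3 (chromosome 10, 131966455 to 131982013), which tags mitochondria for removal, had 442, 419 and 332 CPM in siNemp1 against 314, 329 and 273 CPM in control cells at 120 kPa, and 377 and 356 CPM against 304 and 302 CPM at 10 kPa. Its relative BNIP3L had 494, 424 and 382 CPM in siNemp1 against 368, 304 and 286 CPM in control cells at 120 kPa, and 389 and 406 CPM against 291 and 293 CPM at 10 kPa. For both, the groups were apart at each stiffness, at 120 kPa by a few CPM for BNIP3. In the blocked fit at 120 kPa the log2 change was 0.38 ± 0.09 for BNIP3 (adjusted p = 0.0254) and 0.44 ± 0.10 for BNIP3L (adjusted p = 0.0205), against adjusted p of 0.167 and 0.131 without the block. The fit of the 10 kPa libraries called BNIP3 at 0.26 ± 0.05 and BNIP3L at 0.43 ± 0.05, with adjusted p of 0.00188 and 1.41e-05.

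P4HA1 and P4HA2 are the catalytic subunits of collagen prolyl hydroxylase. P4HA1 had 372, 311 and 214 CPM in siNemp1 against 319, 275 and 214 CPM in control cells at 120 kPa, and 312 and 312 CPM against 262 and 267 CPM at 10 kPa. It overlapped at 120 kPa and was called in the fit of the 10 kPa libraries (0.23 ± 0.05, adjusted p = 0.00525), as was P4HA2 with 417 and 443 CPM in siNemp1 against 385 and 374 CPM in control cells there (0.16 ± 0.06, adjusted p = 0.0425). VEGFA, the growth factor of blood vessels, had 9.88, 14.5 and 24.4 CPM in siNemp1 against 13.9, 14.3 and 18.1 CPM in control cells at 120 kPa, and 11.95 and 10.2 CPM against 14.0 and 14.1 CPM at 10 kPa. At 120 kPa the siNemp1 libraries took the lowest and the highest places, and at 10 kPa both were below the controls. VEGFA was not called in these fits, with a log2 change of 0.08 ± 0.27 at 120 kPa and −0.35 ± 0.34 at 10 kPa. ANKRD37 had 8.36, 9.10 and 8.09 CPM in siNemp1 against 5.07, 4.74 and 7.50 CPM in control cells at 120 kPa, a log2 change of 0.56 ± 0.20 (adjusted p = 0.191). Without control replicate 3, which lies closest to the siNemp1 libraries, ANKRD37 was the 1 member called at 120 kPa without the block. At 10 kPa ANKRD37 overlapped, with 4.49 and 5.30 CPM in siNemp1 and 4.56 and 5.23 CPM in control cells. ADM, NDRG1, KDM3A and DDIT4 were not called at either stiffness in these fits. With all libraries fitted they had log2 changes from −0.08 to 0.32 at 120 kPa and from −0.11 to 0.11 at 10 kPa.

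DDIT4, an inhibitor of growth signalling through mTOR that stress induces, varied more between libraries than any other tested member, 3.72 times from the lowest to the highest. It had 107, 197 and 220 CPM in siNemp1 against 59.0, 160 and 199 CPM in control cells at 120 kPa, and 108 and 83.8 CPM against 89.2 and 95.1 CPM at 10 kPa. Replicate 1 was the lowest library in both groups at 120 kPa. SLC16A3, PFKL, VEGFA and HIF1A were also lowest in replicate 1 in both groups at 120 kPa, while GAPDH, ALDOA, PKM, TPI1 and ENO1 were highest there.

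**Figure D5:**
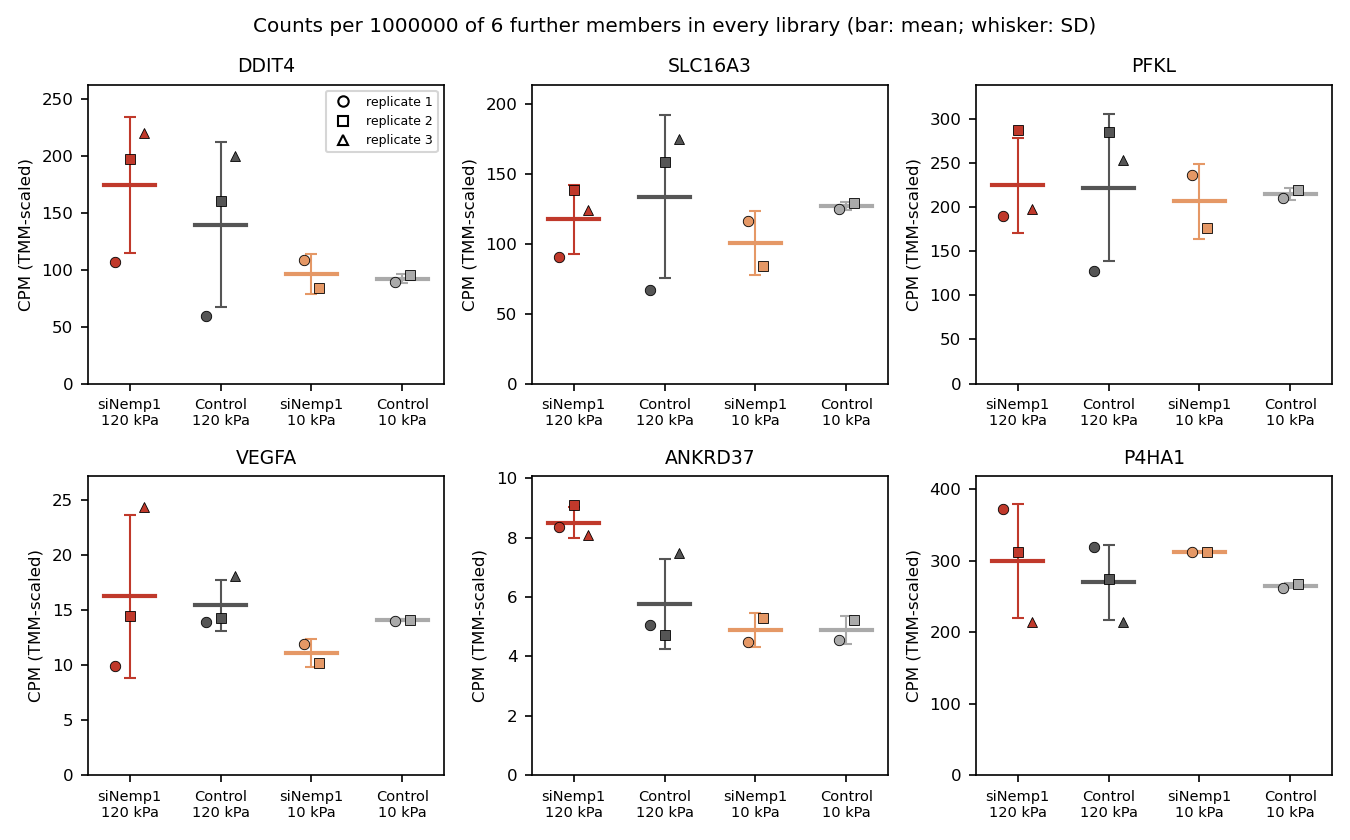
Counts per 1000000 of DDIT4, SLC16A3, PFKL, VEGFA, ANKRD37 and P4HA1 in every library of the 4 groups, with marker shapes for the replicate number, a bar at the mean and a whisker of 1 SD. DDIT4 at 120 kPa runs from 107 to 220 CPM in siNemp1 and from 59.0 to 199 CPM in control cells, lowest in replicate 1 of each.

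No member passed the test for substrate stiffness in the fit of all libraries. Between 120 and 10 kPa the fit of all libraries called 0 of 35 members in control cells, where it called 0.0143% of genes, and 569 genes and 0 members had an unadjusted p under 0.05. In siNemp1 cells it called 0 of 35 members and 0% of genes, with 1655 genes and 3 members at an unadjusted p under 0.05. With the block, 0 members and 0.0214% of genes were called in control cells and 0 members and 0.0143% of genes in siNemp1 cells, and with the compared groups only, 0 members and 0.0221% or 0.00738% of genes. In control cells 3 members were higher at 120 kPa with no overlap (PGK1, ENO1 and PDK1), against 10.3% of all genes, and 7 were lower (SLC2A1, HK2, ALDOA, HIF1A, EGLN1, NDRG1 and KDM3A), against 11.9%. In siNemp1 cells 6 were higher at 120 kPa with no overlap (SLC2A3, SLC16A1, PGK1, PGAM1, ADM and ANKRD37), against 18.2% of all genes, and NDRG1 was lower, against 15.5%. ANKRD37 had the lowest p among the members in siNemp1 cells, with a log2 change of 0.80 ± 0.23 (adjusted p = 0.315). PGK1 was higher at 120 kPa by 0.44 ± 0.17 in siNemp1 and by 0.27 ± 0.17 in control cells on the log2 scale (adjusted p = 0.378 and 0.991). These comparisons share libraries with those of siNemp1 against control.

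Whether siNemp1 acted differently on the stiff and the soft substrate was tested as the difference between the 2 log2 changes. The fit called 0 of 35 members and 0.00715% of genes, with 235 genes and 0 members at an unadjusted p under 0.05. Under each of the 22 alternatives 0 members were called, DESeq2 among them. For PGK1 the difference was 0.16 ± 0.24, and for ANKRD37, the member with the lowest p, it was 0.56 ± 0.32 (adjusted p = 1 for both). A p above the threshold does not show that the effects were equal, and with these errors differences of the size seen for PGK1 were not detectable.

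The neighbouring pathways were counted from lists of other genes. These lists, and those of oxygen sensing and further targets below, were chosen with earlier results of these data known. Their shares against all genes are therefore not independent support. Of 30 genes for pyruvate entry and the citrate cycle, the blocked fit at 120 kPa called 7 higher and 0 lower, against 6.24% and 2.51% of all genes. They were SDHB, SDHC and SDHD of succinate dehydrogenase, the malate dehydrogenase MDH1, PDHB and PDHX of the pyruvate dehydrogenase complex, and SUCLG1 of succinate ligase. SDHD led with a log2 change of 0.79 ± 0.10 (adjusted p = 0.00567), and its log2 change averaged over both stiffnesses passed without the block as well (0.52 ± 0.09, adjusted p = 0.0442). The median log2 change of the 30 genes was 0.15 in the fit of all libraries, where 0 were called. In the fit of the 10 kPa libraries 8 rose and 1 fell, against 8.1% and 9.19% of all genes, with the smallest p for PDHB at 0.29 ± 0.06 (adjusted p = 0.00215), and the citrate synthase CS falling by 0.23 on the log2 scale. The blocked fit at 120 kPa called 0 of 10 genes of the pentose phosphate pathway, and BPGM alone of 19 other genes of glycolysis and glycogen (0.49 ± 0.13, adjusted p = 0.0386). At 10 kPa the fit of those libraries called the transaldolase TALDO1, SLC16A7 and PGM1 higher.

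Of 15 further genes of the oxygen-sensing machinery, the blocked fit at 120 kPa called ELOC and RBX1 higher and ARNT2 lower, against 6.24% of all genes higher and 2.51% lower. ELOC and RBX1 belong to the ubiquitin ligase that destroys the alpha subunits, and rose by 0.41 ± 0.09 and 0.58 ± 0.12 on the log2 scale (adjusted p = 0.0177 for both). At 10 kPa the fit of those libraries called ELOB and CUL2 higher and EPAS1 and CREBBP lower. EPAS1, the second alpha subunit, fell by 0.46 on the log2 scale there (SE 0.08, adjusted p = 0.000304). Of 38 other targets of hypoxia-inducible factor, the blocked fit at 120 kPa called 6 higher (EFNA1, FAM162A, HILPDA, MIF, ERO1A and AK4) and 2 lower (GPRC5A and PLOD1), against the same 6.24% and 2.51%, so that the count of lower genes is near the background. The median log2 change of these 38 genes was 0.07, and that of all genes was 0.01, in the fit without the block. EFNA1, a ligand of Eph receptors, and the mitochondrial protein FAM162A were also called in the average without the block, at 0.68 ± 0.13 and 0.52 ± 0.10 (adjusted p = 0.0477 for both). In the fit of the 10 kPa libraries 9 targets rose and 3 fell, against 8.1% and 9.19% of all genes, and the count that fell is near that background. Among those that fell was CA9, the carbonic anhydrase that is widely used as a marker of hypoxia, which fell by 0.31 on the log2 scale (SE 0.06, adjusted p = 0.0011).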

How the data were processed

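RNA was depleted of ribosomal RNA and reverse transcribed with random hexamers, per the labels. Per the submitters' processing notes, the tools were FastQC (0.11.9), Trimmomatic (0.33), Salmon (1.80, as written there) and edgeR, with GRCh38. The sources used here do not give the annotation, the step to genes or the strandedness. The authors' deposited values are expected counts per gene in 10 libraries, and they were rounded here to whole numbers.

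After filterByExpr and TMM scaling, edgeR 4.0.16 (R 4.3.3) fitted a quasi-likelihood model of the 4 group means to the 10 libraries together, with 6 residual degrees of freedom. Tests were two-sided, p-values were adjusted over the 13990 tested genes by Benjamini-Hochberg, and an adjusted p under 0.05 was called. Errors of log2 changes are the log2 change divided by the root of the F statistic. CPM are TMM-scaled. Lengths and coordinates come from GENCODE 29, and a length is the median over the protein-coding transcripts of the gene.

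The members and lists were chosen with earlier results of these data known. Values per library are given for members called in the fit without the block, with it, or of the 10 kPa libraries, and for HIF1A, SLC2A1, HK2, PGK1, GAPDH, PKM and VEGFA; DDIT4, ANKRD37, SLC16A3, ALDOA and ENO2 were added after their values were seen, as were EGLN3 and SDHC. A result on 1 further gene of the lists is not reported here.

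Deviations of same-numbered siNemp1 and control libraries from their group means correlated across genes at 0.426, 0.157 and 0.359 for replicates 1, 2 and 3 at 120 kPa, which met the rule for pairing, and at 0.0171 at 10 kPa and −0.0461 on average between stiffnesses. The block gave each number the same shift at both stiffnesses, which the values at 10 kPa and between stiffnesses do not call for. The numbers come from the titles, and what they stand for is not given there. Replicates differed by more than sampling noise (chi-square per gene of 2.67 to 97.3). Alternatives were the replicate block, the compared groups only, DESeq2 1.42.0, other scalings and filters, limma 3.58.1 with a variance per stiffness, and each library left out. Without each library in the fit of the 10 kPa libraries, and limma with the block, were chosen after seeing the data.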

Additional observations from a re-analysis of the deposited data

How the results depend on the processing

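The direction was followed for 33 log2 changes. They were those of called members, at most 12 per comparison, and of HIF1A, SLC2A1, HK2, PGK1, GAPDH, PKM and VEGFA. Of their 842 values under the alternatives, 825 kept their direction and 17 reversed. Other members named in the text, such as DDIT4, PFKL, SLC16A3 and ANKRD37, were not counted, and some of those reversed too. The average of PFKL over both stiffnesses was −0.018 without the block and 0.0069 with it. VEGFA at 120 kPa was −0.0247 with the block on the compared groups only, −0.0451 with upper-quartile scaling and the block and −0.0043 with limma's variance per stiffness, and ran from −0.3724 to 0.3183 with a library left out, and was −0.02 and −0.258 without the replicate 2 or replicate 3 pair in the blocked fit. PKM at 120 kPa was −0.0132 with upper-quartile scaling and the block and ran from −0.1593 to 0.2489 with a library left out, and was −0.0387 and −0.0377 without the replicate 1 or replicate 2 pair. GAPDH ran from −0.1888 to 0.0985 there and from −0.0362 to 0.1324 at 10 kPa, and SLC2A1 at 10 kPa from −0.0079 to 0.0361. With only the 10 kPa libraries fitted, SLC2A1 was −0.0185 without control replicate 1 and GAPDH −0.0354 without siNemp1 replicate 2. The cause was not tested.

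Members called at 120 kPa, 0 as reported first, were 4 with the block, 5 with the block on the compared groups only, 5 with upper-quartile scaling and the block, 1 with no filter on low counts, 2 with DESeq2, 4 with limma and the block, 0 to 1 with a library left out and 0 to 5 with a pair left out of the blocked fit. At 10 kPa they were 0 as reported first, 14 for the compared groups only, 12 there with the block, 3 with limma, 0 with limma and the block, and 4, 5, 19 and 22 with each library left out of the compared groups. Averaged over stiffness they were 1 in the fit of all libraries, 7 with the block, 0 with DESeq2's size factors, 0 with upper-quartile scaling, 6 with that scaling and the block, 3 with no filter, 2 with at least 5 CPM in at least 2 libraries, 5 with DESeq2, 7 with limma, 10 with limma and the block, 0 to 3 with a library left out and 10, 3 and 8 with the replicate 1, 2 or 3 pair left out of the blocked fit. Between stiffnesses DDIT4 was called in control cells without the replicate 1 pair in the blocked fit (1 against 0), and in siNemp1 cells there, with the block on the compared groups only and with no filter (1 each). Over all genes the counts ranged from 0 to 1552 at 120 kPa, 0 to 2493 for the average, 0 to 159 and 0 to 529 for stiffness in control and siNemp1 cells and 0 to 70 for the difference. With upper-quartile scaling the blocked fit at 120 kPa called 645 genes higher and 570 lower, against 873 and 351. At 120 kPa the block on the compared groups only called 1255 genes, and limma with the block called 912. Where no share of all genes is given for the same fit, a count of members is not read as a result about these genes.

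Depth did not limit most members, since 35 of 36 passed the filter. How reads were split between genes and near-identical copies was not tested beyond the pseudogene rows, so GAPDH, PGAM1 and BNIP3, with the most such rows, are the least certain. Without a stated strandedness, reads of a gene and of an antisense partner cannot be told apart. Groups of 2 or 3 libraries give wide errors.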
